A study of Mus musculus with 8 samples.

Results

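Cytosolic ribosomal protein genes encode the proteins of the large and small subunits of the ribosome outside mitochondria. They were followed in LSK cells, a bone marrow fraction without lineage markers that carries Sca1 and Kit and holds the blood stem cells, of Asxl2 knockout (KO) and wild-type (WT) mice. The set was every protein-coding mouse gene named Rpl or Rps with a number and at most 1 further letter a, l or x, plus Rplp0, Rplp1, Rplp2 and Rpsa. It held 80 genes, 49 of the large and 31 of the small subunit, out of 47311 genes in the files. The groups were 2 old KO, 2 young KO, 2 old WT and 2 young WT mice, 8 libraries in all. Old mice were over 1 year of age and young mice 8 to 12 weeks. The genotype is given only as Asxl2 KO or WT, and the kind of allele is not given in the sources used here. The mice came as littermates, so that each of 4 litters held 1 KO mouse and 1 WT mouse. Litters 1 (old) and 3 (young) were in batch 1, and litters 2 (old) and 4 (young) in batch 2. In every list of 4 values the order is litter 1 to 4. LSK cells are a mixed fraction, so in these bulk samples more cells of a type and more RNA per cell cannot be told apart.

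The genes of this family are transcribed together at high levels, and their mRNAs share a start of pyrimidines through which mTOR signalling, with Larp1, adjusts their translation. Loss of 1 copy of several members causes Diamond-Blackfan anemia in humans, and free Rpl5 and Rpl11 bind Mdm2 and thereby stabilise the protein of Trp53. Blood stem cells are known for a low and tightly held rate of protein synthesis.

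Most members have near-identical processed copies elsewhere in the genome, and reads that match both cannot be placed with certainty. The first pairs below are Rpl5 and Rps12, each with its copy of highest TPM. These members held the smallest shares of the TPM of gene plus copies. Both lines of a pair are coding bases of GENCODE vM21 transcripts (mouse build mm10), read from the same position in both genes, and capitals mark bases that differ. The first 120 coding bases of Rpl5 (chr5:107900502-107909005, plus strand) and of its copy Gm15500 (chr7:114705217-114706235, minus strand) had 0 differences.
Rpl5: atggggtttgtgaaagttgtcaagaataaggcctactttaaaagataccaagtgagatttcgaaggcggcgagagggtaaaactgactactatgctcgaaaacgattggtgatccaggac
Gm15500: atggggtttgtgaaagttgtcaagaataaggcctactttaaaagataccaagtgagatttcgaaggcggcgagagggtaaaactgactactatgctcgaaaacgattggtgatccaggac
The last 120 coding bases of Rps12 (chr10:23785183-23787275, minus strand) and the matching bases of Rps12l1 (chr7:56014016-56014414, plus strand) also had 0 differences. Over their whole match Rps12 and Rps12l1 had 96.4% identity, so bases outside this stretch differ, while Rpl5 and Gm15500 had 100%.
Rps12: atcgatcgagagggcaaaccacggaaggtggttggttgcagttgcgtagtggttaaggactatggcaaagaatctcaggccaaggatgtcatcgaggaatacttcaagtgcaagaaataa
Rps12l1: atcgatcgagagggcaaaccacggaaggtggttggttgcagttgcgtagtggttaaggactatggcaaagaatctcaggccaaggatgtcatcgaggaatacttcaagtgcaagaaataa
By contrast Rps27 (chr3:90212522-90213651, minus strand) and its expressed paralog Rps27l (chr9:66946086-66949516, plus strand) differed at 53 of their first 220 coding bases.
Rps27: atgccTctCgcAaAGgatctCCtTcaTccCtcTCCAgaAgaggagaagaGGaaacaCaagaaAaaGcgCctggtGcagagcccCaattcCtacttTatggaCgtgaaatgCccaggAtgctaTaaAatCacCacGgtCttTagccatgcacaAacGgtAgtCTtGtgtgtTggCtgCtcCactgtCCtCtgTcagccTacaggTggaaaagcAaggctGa
Rps27l: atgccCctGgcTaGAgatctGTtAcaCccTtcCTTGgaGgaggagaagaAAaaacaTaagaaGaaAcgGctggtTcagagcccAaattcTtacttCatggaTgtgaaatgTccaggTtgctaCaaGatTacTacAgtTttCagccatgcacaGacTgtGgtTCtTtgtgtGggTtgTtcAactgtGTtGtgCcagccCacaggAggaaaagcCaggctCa

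Depth ran from 45737972 to 80388500 estimated counts per library. Asxl2 averaged 5.15 ± 0.431 TPM in KO and 26.9 ± 4.1 TPM in WT libraries (SD, n = 4 each; log2 change -2.10, adjusted p = 0.000408). Of 12 genes that define LSK cells, 3 were higher and 5 lower in KO, and their summed level was 2040 to 2696 TPM in KO and 2562 to 3943 TPM in WT libraries. Of 12 erythroid genes 0 were higher and 8 lower in KO, with sums of 1409 to 2470 TPM in KO and 1777 to 3215 TPM in WT libraries. Of 8 mast cell, basophil and eosinophil genes 3 were lower and 0 higher, and of 8 stromal and endothelial genes 2 were lower and 0 higher. Of 8 megakaryocyte and 9 macrophage and dendritic cell genes 1 each was higher. Of 11 neutrophil, 9 B cell and 9 T and NK cell genes 0 were called (edgeR). Over all genes tested in this comparison, 3.19% were called higher in KO and 6.78% lower. The part of these marker shifts in the results that follow was not tested. The 2 old KO libraries, of litters 1 and 2, carried the highest ribosomal protein levels, and the counts and the leading members below are also given without each of them.

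Members made up a larger share of all mRNA in KO than in WT cells. TPM is the number of transcripts of a gene scaled to a fixed total per library, corrected for length, so a higher share of some genes means a lower share of others. The members' summed share was 5.55%, 4.45%, 4.03% and 3.20% in the KO libraries, against 3.46%, 3.10%, 3.19% and 2.49% in the WT libraries. Every KO library lay above its WT littermate, while the 2 groups overlapped across litters. The KO mean was 4.31% ± 0.978 and the WT mean 3.06% ± 0.41 (SD, n = 4 each). The ratio of KO to WT was 1.6, 1.44, 1.26 and 1.29 in litters 1 to 4. For other protein-coding genes of similar length with at least 100 TPM, the median level gave ratios of 1.2, 1.12, 1.07 and 1.24. The member ratio was the higher in each litter, by little in litter 4. With near-identical copies added, the share was 7.45%, 5.97%, 5.47% and 4.49% in KO libraries and 4.62%, 4.19%, 4.34% and 3.20% in WT libraries.

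**Figure D1:**
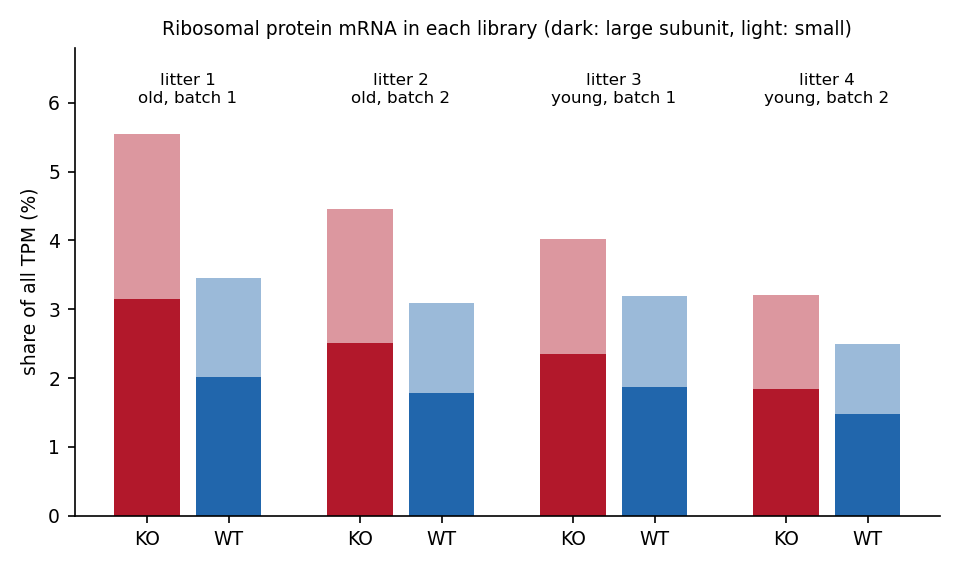
Share of all TPM held by the 80 ribosomal protein genes in each library (vertical axis, %), with KO left of WT in each litter. Dark parts are large subunit genes and light parts small subunit genes; KO is above WT in all 4 litters, and litter 1 has the highest KO share, 5.55%.

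Both subunits took part. Large subunit genes summed to 31527, 25116, 23463 and 18470 TPM in KO libraries, against 20082, 17762, 18664 and 14727 TPM in WT libraries. Small subunit genes summed to 23941, 19416, 16808 and 13538 TPM in KO libraries, against 14474, 13213, 13233 and 10159 TPM in WT libraries. The ratio of large to small was 1.34 ± 0.0479 in KO and 1.4 ± 0.0457 in WT libraries (SD, n = 4 each). By litter it was 1.32, 1.29, 1.40 and 1.36 in KO libraries, against 1.39, 1.34, 1.41 and 1.45 in WT libraries, lower in KO in all 4 litters. This difference was not tested.

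Single members spanned a wide range of levels. Of the 80 genes, 70 averaged at least 100 TPM and 8 at least 1000 TPM. Rpl4, which lines the peptide exit tunnel, had the highest mean, 1631 TPM. The 8 above 1000 TPM were Rpl4, Rps9, Rpl13, Rpl32, Rps19, Rplp0, Rps14 and Rps2. At the low end 4 genes averaged under 10 TPM, among them the paralogs Rpl3l, Rpl10l and Rpl39l, which in other tissues are known from muscle or testis. Rpl3l had 0.55, 0.94, 0.97 and 0.98 TPM in KO libraries and 0.82, 0.45, 0.5 and 0.66 TPM in WT libraries. Rpl10l reached 0.61 TPM in 1 young KO library and was at most 0.22 TPM in the others. Rpl39l ranged from 0.09 to 0.91 TPM in KO and from 0 to 1.37 TPM in WT libraries. These 3 genes were close to 0 beside their main partners Rpl3, Rpl10 and Rpl39 in each library.

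Over both ages, KO against WT, 54 of the 79 members that could be tested were higher in KO and 0 were lower (edgeR quasi-likelihood F test, adjusted over 25543 genes, threshold 0.05). Of all genes tested, 3.19% were called higher and 6.78% lower. The median log2 change of the members was 0.65, against 0.10 over all genes. Among 3018 other protein-coding genes of 216 to 978 bases effective length, the range of the central members and not of the shortest and longest, 8.42% were called higher, with a median of 0.36. Among the 703 of these with at least 100 TPM, 23.3% were called higher, and the median was again 0.36. By subunit, 31 of 48 large and 23 of 31 small subunit genes were higher, with medians of 0.64 and 0.68. KO exceeded WT in all 4 litters for 62 members, where 12.3% of all genes tested did so. The lowest KO library exceeded the highest WT library for 15 members, against 1.8% of all genes tested. Rpl39 was among these 15, with Rpl6, Rpl22 and Rpl24.

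**Figure D2:**
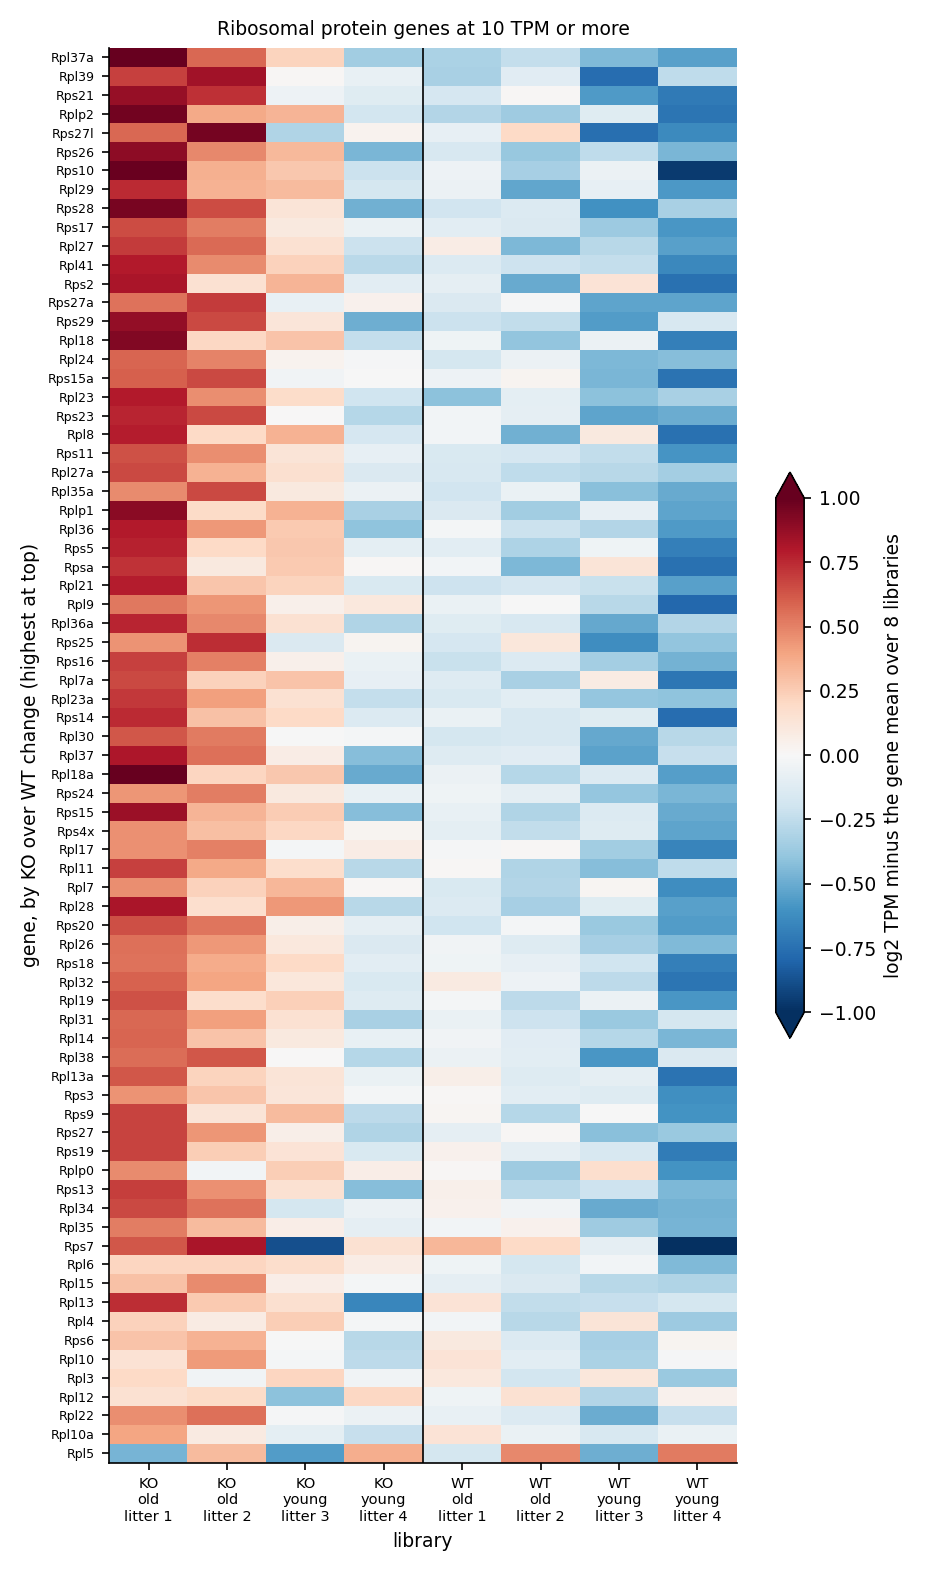
Log2 TPM of ribosomal protein genes with a mean of at least 10 TPM (rows, by KO over WT change) in the 8 libraries (columns, KO left), each minus the mean of its gene. The 2 old KO libraries are the reddest columns, and Rpl5, with the smallest change, has lower TPM in KO than in WT in all 4 litters.

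The largest change was that of Rpl37a, a zinc finger protein of the large subunit. Rpl37a had 522, 366, 286 and 193 TPM in KO libraries, against 197, 208, 181 and 169 TPM in WT libraries. Its change was 0.91 ± 0.22 on the log2 scale (SE, adjusted p = 0.0321). Rpl39, a short protein of the exit tunnel, had 102, 113, 63.7 and 60 TPM in KO libraries, against 50.7, 58.5, 37.4 and 53.1 TPM in WT libraries. All KO values lay above all WT values, and the change was 0.88 ± 0.21 (SE, adjusted p = 0.0299). Rps21, Rplp2 and Rps27l were also among the highest, with changes of 0.85, 0.83 and 0.78 (adjusted p = 0.0365, 0.0321 and 0.0179). With litter as a replicate block Rps27l kept its call (adjusted p = 0.0368), while Rpl37a, Rpl39, Rps21 and Rplp2 did not (adjusted p = 0.0574, 0.057, 0.0637 and 0.0561). Without the old KO mouse of litter 1 the changes of Rpl37a, Rpl39, Rps21 and Rps27l were 0.80, 0.83, 0.78 and 0.79 and were not called (adjusted p = 0.0688, 0.0753, 0.107 and 0.0512). Without that of litter 2, Rpl37a was called (0.89, adjusted p = 0.0486), and Rpl39, Rps21 and Rps27l were not (0.83, 0.85 and 0.74, adjusted p = 0.0808, 0.09 and 0.06).

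All 3 genes of the P stalk, which recruits elongation factors to the ribosome, were higher in KO. Rplp0 had 1561, 1104, 1335 and 1173 TPM in KO libraries, against 1135, 879, 1264 and 743 TPM in WT libraries. Rplp1 had 904, 553, 615 and 387 TPM in KO libraries, against 437, 380, 456 and 336 TPM in WT libraries. Rplp2 had 810, 542, 526 and 367 TPM in KO libraries, against 340, 325, 383 and 250 TPM in WT libraries. KO exceeded its WT littermate in every litter for these 3 genes, and their log2 changes were 0.51, 0.70 and 0.83 (adjusted p = 0.0427, 0.0468 and 0.0321). With litter as a replicate block these 3 calls were lost (adjusted p = 0.0589, 0.0745 and 0.0561). They were also lost without the old KO mouse of litter 1 (log2 change 0.51, 0.60 and 0.74, adjusted p = 0.111, 0.0998 and 0.0704) and without that of litter 2 (0.50, 0.70 and 0.79, adjusted p = 0.148, 0.0897 and 0.0611). Rplp2 held 96.5% of the TPM of gene plus copies, and its 1 copy was in Wdr89, a gene annotated as protein-coding, at 15.9 TPM. With the counts of Wdr89 added, Rplp2 had a log2 change of 0.61 and was not called (adjusted p = 0.0604). With the length correction as well it had 0.02 (adjusted p = 0.914). Both sums took all counts of Wdr89, not only those of the matching stretch.

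Rps19, the first gene found mutated in Diamond-Blackfan anemia, had 2070, 1535, 1428 and 1163 TPM in KO libraries, against 1337, 1217, 1160 and 796 TPM in WT libraries (log2 change 0.55 ± 0.14 SE, adjusted p = 0.0351). Rps14, whose loss marks the human disorder with deletion in the long arm of the fifth chromosome, had 1855, 1354, 1264 and 1006 TPM in KO libraries, against 1054, 986, 1016 and 649 TPM in WT libraries (log2 change 0.66 ± 0.16 SE, adjusted p = 0.0321). Rpl24, whose mutation in mice lowers protein synthesis in blood stem cells, had 480, 452, 329 and 317 TPM in KO libraries, against 284, 308, 235 and 238 TPM in WT libraries. Rpl24 changed by 0.73 ± 0.15 (SE, adjusted p = 0.0219). Rpl11, the partner of Rpl5 in binding Mdm2, had 315, 256, 222 and 162 TPM in KO libraries, against 198, 160, 147 and 165 TPM in WT libraries. KO was thus below WT in litter 4, and the change of Rpl11 was 0.64 ± 0.18 (SE, adjusted p = 0.0439). With litter as a replicate block Rps14 and Rpl24 kept their calls (adjusted p = 0.0489 and 0.0418), and Rps19 and Rpl11 did not (adjusted p = 0.0542 and 0.0728). Without the old KO mouse of litter 1 the changes of Rps19, Rps14, Rpl24 and Rpl11 were 0.55, 0.63, 0.71 and 0.58 and were not called (adjusted p = 0.0799, 0.0757, 0.0554 and 0.0938). Without that of litter 2 they were 0.54, 0.64, 0.71 and 0.61 and were not called (adjusted p = 0.126, 0.0891, 0.061 and 0.115).

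Some members did not pass, and several of these had most of their reads assigned to copies. Rpl5 had 20.6, 35.4, 19.3 and 36.5 TPM in KO libraries, against 25.2, 39.7, 20.3 and 40.8 TPM in WT libraries, a KO value below WT in all 4 litters. Its counts gave a log2 change of 0.03 ± 0.15 (SE, adjusted p = 0.902). Log2 changes were 0.24 for Rpl12, at the base of the P stalk (adjusted p = 0.372), 0.31 for Rpl10, a protein added late to the large subunit (adjusted p = 0.185), and 0.22 for Rpl10a (adjusted p = 0.314). For Rpl3, near the peptidyl transferase centre, the log2 change was 0.30 (adjusted p = 0.126). Rpl22 is a case where counts and TPM differ. It had 204, 216, 146 and 141 TPM in KO libraries, against 140, 134, 104 and 125 TPM in WT libraries, with no overlap. The log2 change was 0.23 on counts (adjusted p = 0.304) and 0.47 on log2(TPM + 1) tested with limma (adjusted p = 0.037). Rps6, the substrate of the ribosomal S6 kinases, had a log2 change of 0.32 (adjusted p = 0.163).

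A search with blastn for genes with at least 90% identity over at least 80% of a member's coding sequence found 750 copy genes for 71 members. Of these 733 were annotated as pseudogenes and 16 as protein-coding. The copies held 22.2% to 28.7% of the TPM of members plus copies in each library. Of the members, 47 held over 90% of their own family estimate and 21 held under 50%. Rpl5 held 3.7%, and Gm15500, whose printed bases are the same, averaged 886 ± 69.8 TPM in KO and 654 ± 100.9 TPM in WT libraries (SD, n = 4 each; log2 change 0.57, adjusted p = 0.0316). Rpl12 held 9.3%, and its copy Gm10275 averaged 447 ± 74.2 TPM in KO and 300.2 ± 64.9 TPM in WT libraries (SD, n = 4 each; log2 change 0.71, adjusted p = 0.0207). Rps12 held 1.9%, with 7.08, 0.02, 0 and 0 TPM in KO libraries and 13.2, 0, 2.79 and 12.9 TPM in WT libraries. It was thus at 0.02 TPM or less in 4 libraries, while Rps12l1 averaged 161 ± 32.5 TPM in KO and 84.6 ± 30.2 TPM in WT libraries (SD, n = 4 each). Rps12 was singled out after its values were seen.

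When each member's counts were summed with those of its copies, 66 members were higher in KO and 0 lower, where 3.24% of all genes tested were higher. Of the 54 called alone, 52 were called again, and Rplp2 and Rpl21 were not (adjusted p = 0.0604 and 0.0607). For these the copy with the highest TPM was annotated as protein-coding, Wdr89 for Rplp2 and BC004004 for Rpl21. Among the 21 members holding under 50%, 8 were called alone and 20 with copies, and their median log2 change was 0.51 alone and 0.67 with copies. Among the other 58 members 46 were called both ways. With copies, the change of Rpl5 was 0.54 (adjusted p = 0.0322), of Rpl12 0.61 (0.0256), of Rpl10 0.68 (0.024) and of Rps12 0.84 (0.0174). Rpl3 and Rpl22 did not pass with copies (adjusted p = 0.109 and 0.298). The summed values also varied less in level between members, with an SD of log2 TPM of 0.976 over 76 members, against 1.25 for the members alone.

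**Figure D3:**
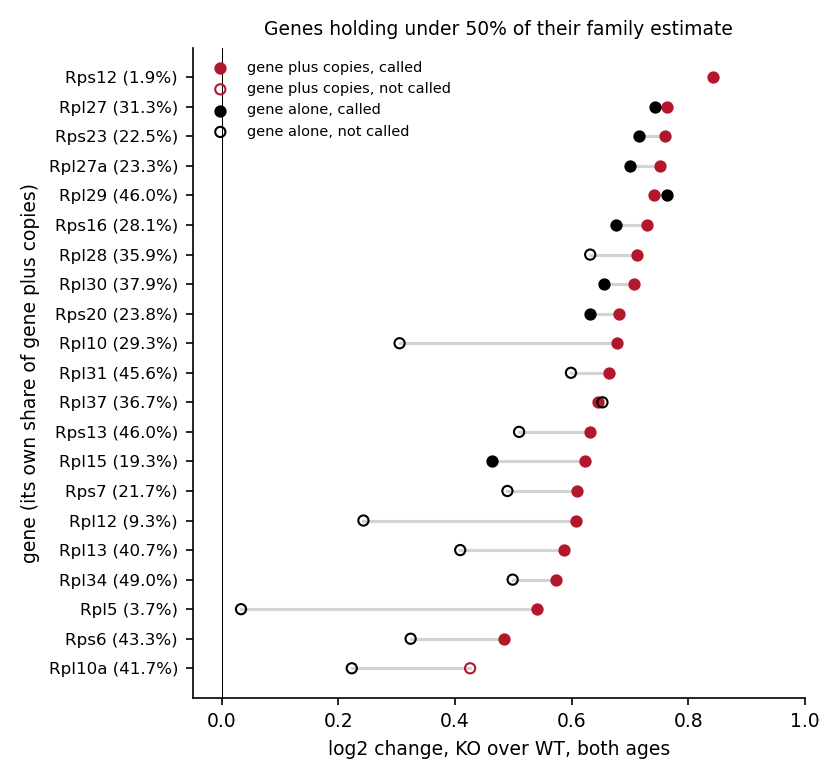
Log2 change, KO over WT over both ages (horizontal axis), of the 21 members that hold under 50% of the TPM of their family, alone (black) and summed with near-identical copies (red); filled points were called. The copies move Rpl5, Rpl12 and Rpl10 from 0.03, 0.24 and 0.31 to 0.54, 0.61 and 0.68, and Rps12 alone is left out because it averages under 10 TPM.

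Members are short, and other short protein-coding genes also had positive median changes in KO. The slope of log2 TPM on log2 effective length was -0.86, -0.745, -0.591 and -0.596 in KO libraries, against -0.539, -0.558, -0.534 and -0.246 in WT libraries. KO was the steeper in each litter. The effective lengths of the members ran from 89 to 1590 bases, with a median of 476. In the class from 200 to 400 bases, 25 members had a median log2 change of 0.67, and 184 other protein-coding genes with at least 10 TPM had 0.50. From 400 to 600 bases, 24 members had 0.67 and 342 other genes 0.42. From 600 to 900 bases, 14 members had 0.63 and 683 other genes 0.25. From 900 to 2000 bases, 9 members had 0.49 and 3256 other genes -0.06. In the shortest class, under 200 bases, the values were 0.73 for 7 members and 0.62 for 62 other genes. The gap between members and other genes of their class was thus widest in the longest class. That class runs past the longest member, at 1590 bases, and the classes were not matched for level.

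**Figure D4:**
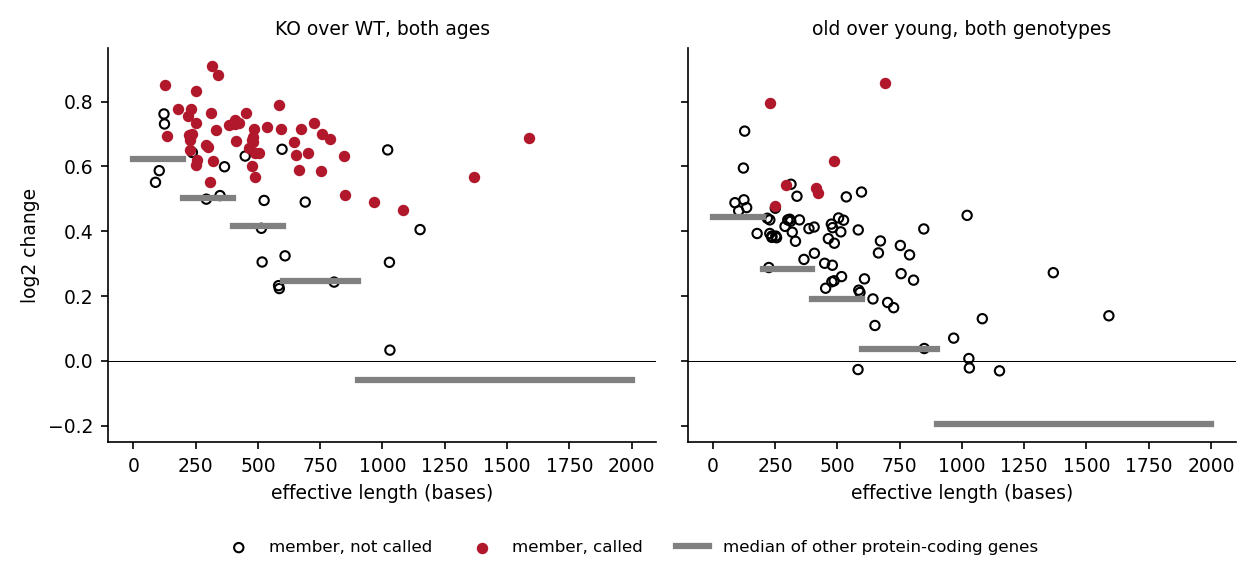
Log2 change (vertical axis) against effective length in bases of the 76 members with at least 10 TPM, for KO over WT (left) and old over young (right). Filled points were called, and grey bars give the median of other protein-coding genes in 5 length classes; most points lie above the bar of their class.

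A trend of level on length was then removed in each library with an offset fitted on protein-coding genes outside the set. The members' median was then 0.22, and 66 of 79 changes were positive. The test called 11 members higher and 0 lower, where 2.61% of all genes tested were called higher, and 10 of the 11 were among the 54. These were Rpl4, Rpl6, Rpl7, Rpl8, Rpl13a, Rpl15, Rps2, Rps3, Rps4x, Rps27a and Rpsa. Rpl6 had a corrected change of 0.35 (adjusted p = 0.0354) and Rpl4 one of 0.35 (adjusted p = 0.0455). Rps19, Rps14, Rplp1, Rps21 and Rps27l had corrected changes of 0.02, 0.13, 0.08, 0.08 and 0.16 and were not called. With copies added before the correction, 19 members were called higher, where 2.82% of all genes were.

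The count of calls leaned on single mice, and so did the count over all genes. Without the old KO mouse of litter 1 it was 1 member, where 0.372% of all genes were higher. Without the old KO mouse of litter 2 it was 2 members (all genes 0.727%). Without the old WT mouse of litter 1 it was 12 members (0.875%), and without the old WT mouse of litter 2 it was 0 (edgeR, 0.0526%). Without the young WT mouse of litter 4 it was 17 members (0.606%). It was 49 without the young KO mouse of litter 4 (1.51%), 45 without that of litter 3 (6.53%) and 61 without the young WT mouse of litter 3 (6.43%). The median log2 change of the members stayed between 0.55 and 0.76 through these 8 fits. Without litter 1 as a whole 0 members were higher and 1 lower (edgeR, 0.37% of all genes higher), with a median of 0.55. Within the 4 libraries of batch 1, 2 members were higher with a median of 0.78, where 0.429% of all genes were higher. Within the 4 libraries of batch 2, 23 were higher with a median of 0.45, where 13.1% were, and Rps12 was lower. With litter as a replicate block 32 were higher, where 1.48% of all genes were.

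Split by age, the median log2 change, KO against WT, was 0.87 in old and 0.44 in young mice, and the test of that difference called 0 members. Only Rpl27 and Rpl29 passed in old mice (log2 change 1.03 ± 0.20 and 1.05 ± 0.21 SE, adjusted p = 0.0488 for both), where 0.204% of all genes tested were higher. Rpl27 had 277 and 252 TPM in old KO, against 179 and 125 TPM in old WT libraries. Rpl29 had 386 and 293 TPM in old KO, against 221 and 161 TPM in old WT libraries. In young mice 0 members passed (edgeR, and 0 by DESeq2), where 0.00783% of all genes were higher. At an unadjusted p under 0.05 (edgeR), 24 members were higher and 1 lower, where 818 of 25543 genes were higher and 1598 lower. The interaction of genotype and age had a median of 0.41 and called 0 members (edgeR, and 0 by DESeq2), where 0.00391% of all genes were higher. For the interaction 3 members were higher at an unadjusted p under 0.05 (edgeR), where 297 of 25543 genes were. The change was positive at both ages and larger in old than in young mice in each of the 76 members with at least 10 TPM. The interaction was positive in 493 of the 703 other genes of similar length with at least 100 TPM, and in 12635 of 25543 genes tested. All 76 members were measured in the same mice, so they are not separate replicates of this pattern. Across these 76 genes the changes in old and young mice had a Pearson correlation of 0.469 and a Spearman correlation of 0.229, over points that share the same libraries.

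**Figure D5:**
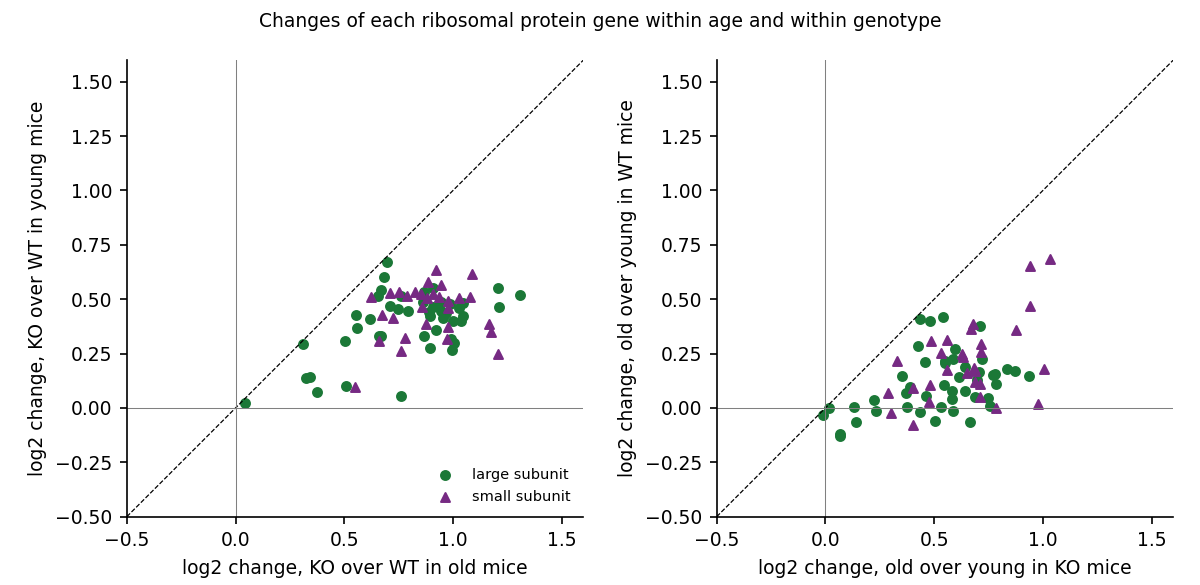
Log2 changes of the 76 members with at least 10 TPM: KO over WT in old against young mice (left), and old over young in KO against WT mice (right); circles are large and triangles small subunit genes, and the dashed line marks equal change. All points lie on or right of the line, with medians of 0.87 and 0.44 on the left and 0.59 and 0.14 on the right.

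With age fewer members were called. Each litter was of a single age, litters 1 and 2 old and litters 3 and 4 young. Age was thus compared between litters, while the fit took littermates as independent mice. A change with age and a difference between litters cannot be told apart here, and a litter block leaves no age change to estimate. Old against young over both genotypes, 7 of 79 were higher and 0 lower, where 4.34% of all genes tested were higher and 9.61% lower, and the median log2 change was 0.39, against 0.15 over all genes. Other genes of similar length with at least 100 TPM had a median of 0.10, and 1.28% of them were called higher. The 7 were Rps7, Rps27l, Rps23, Rpl34, Rps25, Rps27a and Rpl32, and 5 of them were also called in KO against WT. Rps7, which acts in processing of small subunit RNA, had 265 and 304 TPM in the old KO mice. The old WT mice had 218 and 199 TPM, the young KO mice 94 and 192 TPM, and the young WT mice 162 and 77.5 TPM. All old values were above all young ones, and the change was 0.86 ± 0.25 (SE, adjusted p = 0.0458). With its copies summed, Rps7 had a log2 change of 0.36 and was not called (adjusted p = 0.0777). Rps7 held 21.7% of its family estimate, most of the rest being at Gm6472.

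Rps27l, a paralog of Rps27 that Trp53 induces, had 355 and 462 TPM in the old KO mice. The old WT mice had 225 and 274 TPM, the young KO mice 194 and 244 TPM, and the young WT mice 141 and 153 TPM. KO exceeded its WT littermate in each litter, and old exceeded young within each genotype. The change with age was 0.80 ± 0.15 (SE, adjusted p = 0.0208). Rps27 itself had a log2 change with age of 0.49 (adjusted p = 0.103). Rps23, of the decoding centre, changed by 0.62 ± 0.16 (SE, adjusted p = 0.0346). Without the old KO mouse of litter 1 the age changes of Rps7, Rps27l and Rps23 were 0.92, 0.83 and 0.61 and were not called (adjusted p = 0.13, 0.085 and 0.117). Without that of litter 2 they were 0.80, 0.78 and 0.59 and were not called (adjusted p = 0.104, 0.0539 and 0.108). Rpl34 was the other gene with no overlap between old and young libraries, a pattern held by 4.73% of all genes tested. Rpl4, Rpl5 and Rpl3, all among the longer members, had log2 changes with age of -0.03, -0.02 and 0.01, and the Spearman correlation of change with effective length was -0.603 over 76 members. With the length correction 0 members passed (edgeR), where 0.579% of all genes were higher, and the median was 0.12. Single mice again moved the count. Without an old KO mouse it was 0 members in both cases (edgeR, litter 1 with 0.218% and litter 2 with 0.637% of all genes higher). It was also 0 without the young KO mouse of litter 3 (0.137%) or the young WT mouse of litter 4 (0.242%). It was 1 without the old WT mouse of litter 2 (5.86%), 8 without the old WT mouse of litter 1 (0.631%), 4 without the young KO mouse of litter 4 (7.46%) and 15 without the young WT mouse of litter 3 (6.48%). Within batch 1 the median was 0.23 and Rps12 alone was higher, where 7.65% of all genes were. Within batch 2 the median was 0.49 and 5 members were higher, where 3.5% were, and Rps12 was lower. Of 12 erythroid genes 0 were higher and 7 lower in old mice, and of 20 S phase genes 0 were higher and 10 lower. Of all genes tested 9.61% were lower. The part of these shifts in the members' change was not tested.

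Split by genotype, the median change with age was 0.59 in KO and 0.14 in WT mice. No member passed in KO mice (edgeR, 0 of 79), where 0.0626% of all genes were higher. At an unadjusted p under 0.05 (edgeR), 56 members were higher in old KO mice, where 2790 of 25543 genes were. DESeq2 called 38 members in KO mice, where it called 6.85% of its genes higher. None passed in WT mice (edgeR, 0 of 79), where 0.0666% of all genes were higher, and DESeq2 called 0. In WT mice 1 member was higher at an unadjusted p under 0.05 (edgeR), where 1638 of 25543 genes were. The median in WT mice was -0.20 without the old WT mouse of litter 2, so its direction rested on that library.

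Retained-intron transcripts gave a view of the make-up of the member counts. Their share was 1.04%, 1.58%, 0.94% and 2.42% in KO libraries, against 1.61%, 2.52%, 1.17% and 2.65% in WT libraries. The share was lower in KO in each litter, and higher in the libraries of batch 2 than in those of batch 1 at the same genotype and age.

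Genes around the ribosome were examined from lists chosen with earlier results of these data known. Of all genes tested, 3.19% were called higher in KO and 6.78% lower. Of 13 ribosomal protein related genes outside the naming rule, 6 were higher in KO and 0 lower, with a median of 0.54. Rack1, a scaffold on the small subunit, changed by 0.54 (adjusted p = 0.0313). Fau and Rpl22l1, the paralog of Rpl22, did not pass (log2 change 0.55 and 0.47, adjusted p = 0.158 and 0.106). Of 40 translation factors 8 were higher and 0 lower, with a median of 0.21, led by Btf3 of the nascent chain complex (0.65, adjusted p = 0.0255). Of 60 ribosome biogenesis genes 6 were higher and 0 lower, with a median of 0.02. These included the short Nop10 and Nhp2 of the pseudouridylation complex (0.76 and 0.71, adjusted p = 0.0299 and 0.0262), of which Nop10 lost its call with litter as a replicate block (adjusted p = 0.0522). The biogenesis genes were longer than the members, with a median effective length of 1850 bases.

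Of 28 regulators of ribosomal protein genes 0 were higher and 2 lower in KO, with a median of -0.21, a share close to the 6.78% of all genes called lower. Myc, Mtor and Larp1 had log2 changes of -0.13, -0.40 and 0.03 (adjusted p = 0.485, 0.338 and 0.883). Mycn was 1 of the 2 lower (log2 change -0.72, adjusted p = 0.0261). Of 16 genes of the Trp53 and Mdm2 checkpoint 1 was higher and 5 lower, where 3.19% of all genes were higher and 6.78% lower. Cdkn1a, a cell cycle inhibitor, was the one higher (0.91, adjusted p = 0.0325), and Mdm2 was lower (-0.58, adjusted p = 0.0353), and both lost their calls with litter as a replicate block (adjusted p = 0.0596 and 0.0591). Of 41 short nuclear genes of the respiratory chain, 17 were higher, where 3.19% of all genes were, and 0 lower. They had a median effective length of 302 bases and a median log2 change of 0.57. This median change is close to that of the members.

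RefSeq promoter windows on GRCm38.p6, from 250 bases before to 50 after a gene's start, were available for 60 members in 72 windows, out of 32851 windows in all. The letters CCGGAAG, known as a core of sites for the ETS family, were found on either strand in 36.1% of member windows and 8.86% of all windows. CTCTTTC, a run of pyrimidines, or GAAAGAG, the same letters on the other strand, was in 27.8% and 8.16%. These were counted anywhere in the window, not only at the start of the mRNA. AAGATGGC, the core for Yy1, was in 9.72% and 2.75%. CACGTG, the E-box read by Myc, was in 11.1% and 7.15%, and TATAAA in 8.33% and 13.6%. The 100 bases before the start of Rps21 (chr2:180257279-180257378, plus strand), the third largest KO change, are shown as an example with CCGGAAG in capitals.
Rps21: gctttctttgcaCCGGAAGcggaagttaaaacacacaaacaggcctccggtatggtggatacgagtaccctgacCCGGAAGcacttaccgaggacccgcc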

How the data were processed

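PolyA RNA of LSK cells was made into libraries with the SMART-Seq v4 kit, per the labels' protocols. The submitters' processing notes name kallisto, mm10 and DESeq2 without versions; the annotation release is not given in the sources used here. The deposited tables hold the authors' estimated counts, TPM and effective lengths per transcript, per the file headers. Estimated counts share reads between alike transcripts, so near-identical copies compete for them.

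Of 115088 transcripts, 114200 were matched to GENCODE vM21 and summed per gene; the 888 unmatched ones held 0.259% to 0.47% of the counts. Sums of estimated counts were rounded and kept with filterByExpr (minimum count 10, total 15), which left 25543 genes. They were scaled by TMM and tested by quasi-likelihood F test (edgeR 4.0.16, R version 4.3.3), with Benjamini-Hochberg adjustment at 0.05. The 2 overall comparisons were fitted with terms for genotype, for age and for batch, which left 4 degrees of freedom. Those within an age or genotype and the interaction had a mean per group plus a batch term, which left 3. Standard errors (SE) were the log2 change over the root of F. The common dispersion was 0.134 in the first model and 0.141 in the second. Levels are TPM, as mean ± SD over libraries. A pseudocount of 1 or 0.1 was used for log2 TPM with limma 3.58.1. Other software was DESeq2 1.42.0, blastn 2.17.0, matplotlib 3.10.9, numpy 2.4.6, pandas 2.3.3 and Python 3.11.15. The fits were run on simulated data of lower dispersion than these and without batch or litter effects. That run gives no measure of how far calls rest on single mice.

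Similar length means an effective length between 216 and 978 bases, the range of the central members. Only 1 member, Rpl10l, was not tested. The members and lists were chosen with earlier results of these data known. Named members are the 6 highest and 6 lowest changes in each overall comparison at 10 TPM or more, plus fixed ones; others named were chosen after their values were seen, and 1 that the rule names is not reported here. The labels tie each KO mouse to a WT littermate. Deviations from group means correlated at 0.061 in old and 0.12 in young litters. With 2 mice a group, each in its own batch, these values hold batch and litter together. They cannot show how alike littermates are. The alternatives are other scalings, filters, transcripts, copies, batches, litters and left-out mice. At this depth counting error is small beside the difference between mice.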

Additional observations from a re-analysis of the deposited data

Results flagged for a closer look

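Among the results checked by Dixon's ratio, 5 of 136 had 1 library far from the other 3 of its group, where chance alone gives about 1 in 20. Rpl10l stood out in young libraries by its highest value of 0.609 TPM, in a KO mouse. Rpl12 stood out in KO libraries by its lowest value of 28.7 TPM, in litter 3. Rpl3l stood out in KO libraries by its lowest value of 0.547 TPM, in litter 1. Rps14 stood out in WT libraries by its lowest value of 649 TPM, in litter 4. The slope of level on length stood out in WT libraries by its highest value of -0.246, in litter 4. The last 2 values came from the same library, the young WT mouse of litter 4.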

How the results depend on the processing

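Counts of called members depended on the fit, as did the share of all genes each fit called, and the cause was not tested. In old mice the share higher in KO was 6.77% with DESeq2, and 0.936% and 1.66% with log2(TPM + 0.1) and log2(TPM + 1). It was 2.14% with no filter and 3.05% on protein-coding transcripts, against 0.204% in the main fit. Old against young over both genotypes, it was 11.7% with DESeq2, 4.26% with RLE size factors and 6.73% with no filter. It was 4.4% on protein-coding transcripts, against 4.34% in the main fit. KO against WT over both ages (54 members), 11 were called with the length correction, 19 with copies and the length correction, 2 in batch 1, 24 in batch 2, 1 with no batch term, 1 with litter 1 left out and 0 to 61 with a mouse left out. The litter is a true pairing of littermates, and with litter as a replicate block 32 were called over both ages and 0 in old mice. In old mice (2 members) the count was 68 with DESeq2, 33 and 35 with log2(TPM + 0.1) and log2(TPM + 1), 54 with no filter, 66 on protein-coding transcripts, 4 with copies and the length correction, 1 with named pseudogenes, 0 with no batch term and 0 to 58 with a mouse left out. In young mice it was 1 with no filter and 0 to 3 with a mouse left out, and for the interaction 1 with no filter and 0 to 1. Old against young over both genotypes (7 members), it was 31 with DESeq2, 11 with RLE size factors, 13 with no filter, 52 on protein-coding transcripts, 1 in batch 1, 1 with either pseudocount of TPM, and 0 with the length correction, with copies and the length correction, with no batch term or with litter 1 left out, and 0 to 15 with a mouse left out. In KO mice it was 38 with DESeq2, 11 with no filter, 3 on protein-coding transcripts and 0 to 19 with a mouse left out, and in WT mice 0 to 2.

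KO against WT, the length correction turned 11 members from a positive to a negative change, at -0.095 for Rpl10, -0.127 for Rpl10a, -0.11 for Rpl22, -0.059 for Rpl34, -0.064 for Rpl36, -0.255 for Rpl38, -0.089 for Rpl5, -0.314 for Rps27, -0.031 for Rps28, -0.062 for Rps29 and -0.02 for Rps6. The other turned signs given here are those of members under the naming rule. With copies too it gave -0.112 for Rpl22, -0.251 for Rps27 and -0.026 for Rps28. Rpl5 was at -0.112 in batch 2, -0.173 and -0.168 on the TPM scales and -0.012 to 0.068 with a mouse left out, and Rps7 at -0.064 in batch 1. Old against young, the length correction gave 0.084 for Rpl4, 0.054 for Rpl5, -0.121 for Rplp1 and -0.158 for Rps27. With copies too it gave 0.085, 0.212, -0.115 and -0.111 for the same genes and -0.093 for Rplp2. In batch 1 Rpl3 was at -0.14, Rpl6 at -0.137 and Rplp0 at -0.085. In batch 2 Rpl22 was at 0.088 and Rpl4 at 0.136. With litter 1 left out Rpl22 was at 0.157, Rpl4 at 0.203 and Rpl5 at 0.039. On the TPM scales Rpl22 was at 0.402 and 0.4, Rpl4 at 0.004 on both, and Rpl5 at 0.08 and 0.077. On protein-coding transcripts they were at 0.138, 0.162 and 0.168. Rpl5 was at 0.001 with named pseudogenes and 0.134 with copies. Rpl3 was at -0.009 with no batch term and -0.03 with no filter, where Rplp0 was at -0.0. With a mouse left out, age changes ran from -0.137 to 0.117 for Rpl22, -0.103 to 0.11 for Rpl3, -0.126 to 0.099 for Rpl4, -0.08 to 0.039 for Rpl5, -0.044 to 0.19 for Rpl6 and -0.071 to 0.176 for Rplp0. The median log2 change of members, old against young in WT mice, ran from -0.203 to 0.483. The sums with near-identical copies, with and without the length correction, were chosen after seeing the data. Fits that leave out a mouse keep more genes, and each group then rests on few mice.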
